A study of Mus musculus with 2 samples.

Results

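The complement genes of mouse peritoneal macrophages were followed on 2 Affymetrix arrays, 1 of cells transfected with HDAC9 siRNA and 1 of cells transfected with control siRNA; HDAC9 is a histone deacetylase of class IIa. The genes considered were 9: the recognition subunits C1qa, C1qb and C1qc, the central components C3 and C4b, the alternative pathway factors Cfb and Cfp, and the receptors C3ar1 and C5ar1. Members were the probe sets whose single gene symbol in the platform annotation was 1 of these names, which gave 13 probe sets for 7 genes, of 34945 single-symbol probe sets for 18193 genes on the arrays. C3 and C4b had no probe set under that rule and have no values below. Both cultures were peritoneal macrophages of male C57BL/6 mice, taken 48 h after transfection. The labels give no age of the mice, do not say whether animals were pooled, and list 1 array per group.

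Complement is a cascade of plasma proteins that tags microbes and dying cells for uptake. In the classical pathway C1q, built from the chains encoded by C1qa, C1qb and C1qc, binds its target and activates the proteases C1r and C1s. The alternative pathway amplifies the cascade through factor B (Cfb) and properdin (Cfp), and the fragments C3a and C5a signal to leukocytes through the receptors encoded by C3ar1 and C5ar1. Most complement proteins of plasma come from the liver, whereas C1q is made mainly by macrophages and dendritic cells.

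With 1 array per group no difference could be set against a spread between cultures, so no test was run and every difference below compares 2 arrays. Values are deposited log2 signals per probe set, and a difference is the log2 signal on the HDAC9 siRNA array minus that on the control array. Background was set at log2 6.34, the 95th percentile of 80 probe sets for olfactory and vomeronasal receptors, and all 13 member probe sets were above it on both arrays. As an internal yardstick, the scatter of a single probe set, estimated over 5671 genes with more than 1 probe set above background, was 0.29 log2 units. It was 0.20 among the 2008 of them that belong to the brightest 25% of genes. This scatter leaves out differences between cultures.

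The siRNA target was near background. Hdac9 probe set 1434572_at had a log2 signal of 5.69 on the HDAC9 siRNA array, below background, and 6.88 on the control array, which puts it at least 1.46-fold lower. Its other probe set, 1421306_a_at, exceeded background on neither array, at 5.94 on the HDAC9 siRNA array and 5.99 on the control array. A stricter background, the 99th percentile of the same receptor sets, left Hdac9 below it on both arrays. Macrophage markers were present: 10 of 12 were above background on both arrays, among them Adgre1 at log2 12.72 on the HDAC9 siRNA array and 12.71 on the control array. The exceptions, Timd4 and Cd163, were below background on both arrays.

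Of the 9 genes, 6 had an entry in the RefSeq promoter table (GRCm38.p6), and the windows of the 5 measured genes among them are shown because they set C1qc and C3ar1, level in every probe set, beside Cfp, lower on the HDAC9 siRNA array in both of its sets, and beside C1qb and C5ar1, each with 1 set clearly lower than its others. Each window runs from 250 bases before to 50 bases after the start of the gene, 5′ to 3′ on the gene's strand. Capitals mark matches to AGGAAG on either strand, the core of PU.1-type sites (PU.1 is a transcription factor of macrophage development), and 1 match in C3ar1 to an NF-kappaB-type site, searched as GGG, any 2 bases, TT, any base and CC.
C1qb promoter (chr4:136886151-136886450, minus strand): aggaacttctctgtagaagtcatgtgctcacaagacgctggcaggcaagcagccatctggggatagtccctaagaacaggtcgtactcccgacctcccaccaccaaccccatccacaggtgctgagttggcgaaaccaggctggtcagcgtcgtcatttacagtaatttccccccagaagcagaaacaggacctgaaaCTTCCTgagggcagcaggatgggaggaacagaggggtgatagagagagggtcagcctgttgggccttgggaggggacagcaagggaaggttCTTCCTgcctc
C1qc promoter (chr4:136892865-136893164, minus strand): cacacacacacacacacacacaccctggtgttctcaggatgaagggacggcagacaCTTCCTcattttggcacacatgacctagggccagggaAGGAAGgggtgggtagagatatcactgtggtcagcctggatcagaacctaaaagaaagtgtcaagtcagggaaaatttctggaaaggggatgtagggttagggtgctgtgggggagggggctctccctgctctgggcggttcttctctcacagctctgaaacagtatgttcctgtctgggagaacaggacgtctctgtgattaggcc
C3ar1 promoter (chr6:122856108-122856407, minus strand): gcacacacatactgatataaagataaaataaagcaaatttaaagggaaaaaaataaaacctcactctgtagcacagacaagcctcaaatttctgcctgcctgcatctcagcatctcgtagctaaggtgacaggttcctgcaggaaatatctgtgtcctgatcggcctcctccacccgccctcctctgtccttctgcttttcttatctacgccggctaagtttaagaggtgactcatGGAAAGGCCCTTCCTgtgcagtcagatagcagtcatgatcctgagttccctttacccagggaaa
C5ar1 promoter (chr7:16259289-16259588, minus strand): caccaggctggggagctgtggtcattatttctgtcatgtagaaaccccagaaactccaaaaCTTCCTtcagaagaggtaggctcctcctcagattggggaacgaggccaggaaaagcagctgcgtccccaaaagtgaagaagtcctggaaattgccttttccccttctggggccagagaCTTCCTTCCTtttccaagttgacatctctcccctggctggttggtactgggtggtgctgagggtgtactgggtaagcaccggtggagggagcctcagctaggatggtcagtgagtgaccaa
Cfp promoter (chrX:20931506-20931805, minus strand): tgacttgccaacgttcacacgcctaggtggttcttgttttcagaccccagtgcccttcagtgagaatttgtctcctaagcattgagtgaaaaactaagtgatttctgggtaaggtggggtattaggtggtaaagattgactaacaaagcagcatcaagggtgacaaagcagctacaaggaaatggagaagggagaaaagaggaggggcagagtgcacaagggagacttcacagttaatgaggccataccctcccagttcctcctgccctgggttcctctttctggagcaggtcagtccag

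The C1qb and C1qc windows each held 2 PU.1-type matches, C3ar1 1, C5ar1 3 and Cfp 0. In C3ar1 the PU.1-type match overlaps the NF-kappaB-type match, and 2 of the C5ar1 matches overlap each other. Of all 32851 promoter windows of this length, 35.4% held AGGAAG and 4.79% held the NF-kappaB-type site. Other motifs searched on both strands were the interferon response element core (GAAA, any 2 bases and GAAA, in 3.44% of all windows), TTCNNNGAA (STAT site core, in 8.30%) and TTNNGCAA (C/EBP-type, in 10.8%), and none of the 5 windows held these letters. A match is a description of the letters only.

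On the deposited scale the brightest sets of the C1q genes had nearly the same signal on both arrays. C1qa probe set 1417381_at read 13.35 on the HDAC9 siRNA array and 13.40 on the control array, a difference of -0.045. C1qc probe set 1449401_at read 13.65 on the HDAC9 siRNA array and 13.60 on the control array, a difference of 0.056. The linear signals of C1qc were 12883 on the HDAC9 siRNA array and 12390 on the control array, a ratio of 1.04. As deposited, both differences are well inside the single-probe-set scatter of bright genes, but their signs depended on the scaling. C1qa was at 0.019 after quantile normalization and 0.017 after loess. With the arrays centred on their medians C1qa was at -0.19, close to that scatter of 0.20, and C1qc at -0.093.

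C1qb had 3 probe sets, which did not give 1 answer. Its brightest, 1417063_at, read 14.06 on the HDAC9 siRNA array and 14.15 on the control array, a difference of -0.083. Probe set 1437726_x_at read 13.66 on the HDAC9 siRNA array and 13.73 on the control array, a difference of -0.067. Probe set 1434366_x_at stood apart, at 12.67 on the HDAC9 siRNA array and 13.28 on the control array, a difference of -0.61, or 1.53-fold lower. The differences of the 3 sets spanned 0.54 log2 units, and 23.1% of the 2008 bright genes with several probe sets spanned at least as much. The suffix _x_at marks probe sets with probes that can match other sequences, and both of the dimmer C1qb sets carry it. C1qb, C1qc and C1qa lie next to each other on chromosome 4 in the RefSeq annotation, and the brightest sets of all 3 differed by less than 0.10 log2 units between the arrays on the deposited scale. The brightest C1qb set was at -0.23 with the arrays centred on their medians and at -0.014 after loess.

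**Figure D1:**
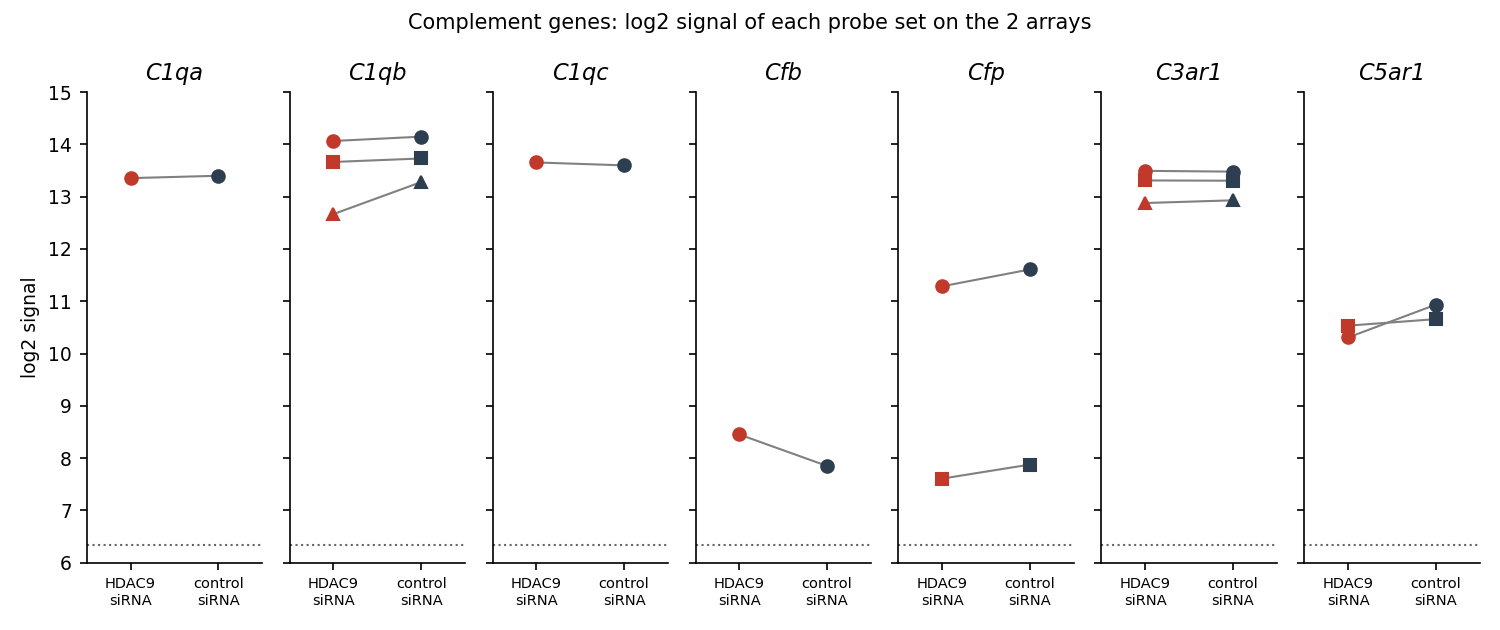
Log2 signal (y axis) of each probe set of the 7 measured complement genes on the HDAC9 siRNA array (red) and the control siRNA array (dark blue). Each point is 1 probe set on 1 array, lines join the same probe set, marker shapes separate the probe sets of a gene, and the dotted line is the background at log2 6.34; the C1qa, C1qc and C3ar1 lines are nearly flat, 1 of 3 C1qb lines and 1 of 2 C5ar1 lines are steeper, and Cfb is the only gene clearly higher on the HDAC9 siRNA array.

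Among the alternative pathway factors, Cfb and Cfp had differences of opposite sign. Cfb encodes factor B, the serine protease of the alternative pathway C3 convertase, and was the one member at least 1.5-fold higher. Its single probe set, 1417314_at, read 8.45 on the HDAC9 siRNA array and 7.85 on the control array, or linear signals of 350.2 on the HDAC9 siRNA array and 230.8 on the control array. The difference was 0.60, a ratio of 1.52, larger than the overall single-probe-set scatter. That scatter includes bright genes, whose own scatter is smaller, and none was estimated for genes in the signal range of Cfb. Of all 12090 genes above background, 7.81% were at least 1.5-fold higher, and among genes ranked between 25% and 50% in signal, where Cfb lies, 9.86% were. Its value stayed positive but short of 1.5-fold under each rescaling of the arrays tried, from 0.45 with median centring to 0.53 after loess.

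Cfp encodes properdin, the protein that stabilises that convertase and is made by myeloid cells. Its brighter probe set, 1452279_at, read 11.29 on the HDAC9 siRNA array and 11.61 on the control array, a difference of -0.32, or 1.25-fold lower. The dimmer set, 1447537_at, read 7.61 on the HDAC9 siRNA array and 7.88 on the control array, a difference of -0.27. The 2 sets thus gave the same direction and nearly the same size, 0.054 log2 units apart, under the deposited scaling. Both stayed negative under the rescalings, the brighter one between -0.47 and -0.29. Of all genes above background, 10.3% had a lower difference than Cfp.

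The receptors of the small complement fragments also differed from each other. C3ar1, the receptor of C3a, was level in all 3 of its probe sets. Probe set 1442082_at read 13.49 on the HDAC9 siRNA array and 13.48 on the control array, a difference of 0.015. Probe set 1419482_at read 13.31 on the HDAC9 siRNA array and 13.30 on the control array (0.0052), and 1419483_at read 12.88 on the HDAC9 siRNA array and 12.93 on the control array (-0.052). The signs of these values turned with the scaling, from -0.13 after median centring to 0.078 after loess for the brightest set. Their span, 0.066 log2 units, was as large or larger in 87.5% of bright genes with several probe sets, so the 3 sets gave closer values than is usual on these arrays.

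C5ar1, the receptor of C5a that draws phagocytes to sites of complement activation, was the one member at least 1.5-fold lower, but by only 1 of its 2 probe sets. Probe set 1439902_at read 10.31 on the HDAC9 siRNA array and 10.94 on the control array, or linear signals of 1267 on the HDAC9 siRNA array and 1958 on the control array. This is a difference of -0.63, or 1.55-fold lower. Probe set 1422190_at read 10.53 on the HDAC9 siRNA array and 10.66 on the control array, a difference of -0.12, inside the scatter. The first set is only slightly brighter by mean signal, and it stands for the gene by that rule. It was the brighter one on the control array only, at 1958 against 1616. On the HDAC9 siRNA array it was the dimmer one, at 1267 against 1482. The control value through which this set was chosen thus also enters its difference. Among all genes above background 2.79% were at least 1.5-fold lower, and 0.662% of the brightest 25%, in which C5ar1 lies by this set. The median of the 2 sets was -0.38, and then the gene was short of 1.5-fold.

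Counted by gene, with the brightest probe set standing for each, 1 of 7 members was at least 1.5-fold higher and 1 at least 1.5-fold lower, against 7.81% and 2.79% of all genes. None was past 2-fold in either direction, against 1.44% higher and 0.372% lower over all genes. The members' median difference was -0.045, beside 0.027 over all 12090 genes and -0.045 over the brightest 25%, to which 6 of the 7 members belong. Below 0 were 4 of 7 members, against 45.9% of all genes. Counted by probe set, 9 of 13 were below 0 (46.6% of 21955 single-symbol probe sets above background), 1 was at least 1.5-fold higher (8.02%) and 2 were at least 1.5-fold lower (3.56%). The shares in brackets cover all signal levels. The sets below 0 are not separate genes, as they include 3 of C1qb, 2 of Cfp and 2 of C5ar1. In all, 9 of the 13 differences were smaller than the overall scatter of 0.29.

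**Figure D2:**
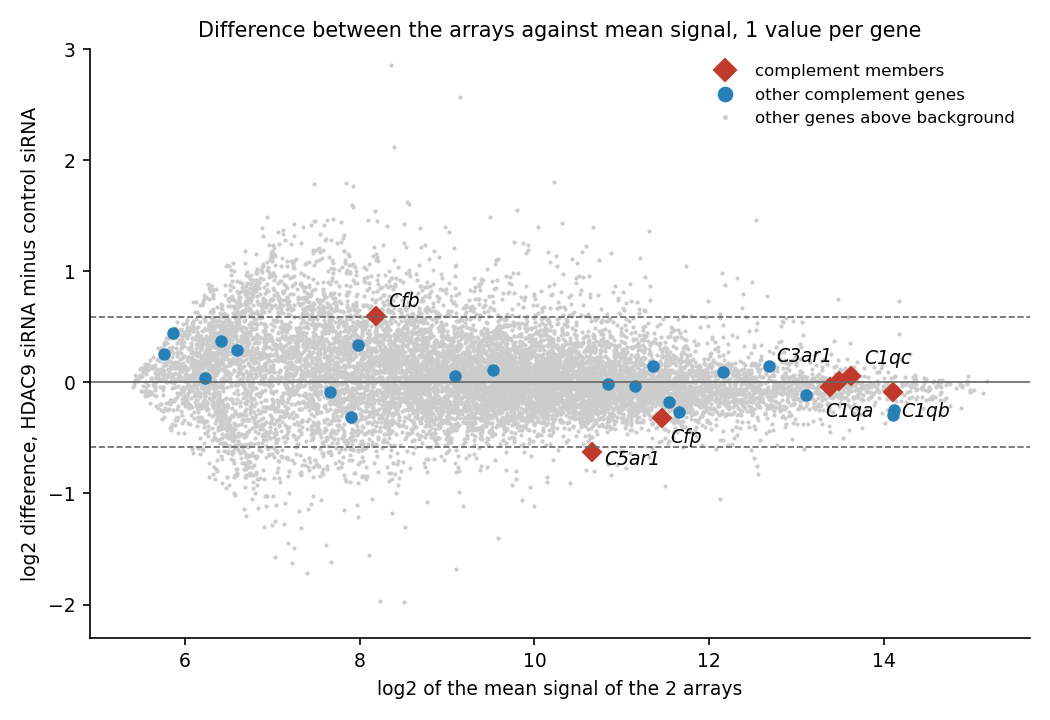
Log2 difference between the HDAC9 siRNA and control siRNA arrays (y axis) against the log2 of the mean signal of both arrays (x axis), 1 point per gene above background. Complement members are red diamonds, other complement genes blue circles and all other genes grey dots, and dashed lines mark 1.5-fold; the spread of grey dots narrows with signal, the members C1qa, C1qb, C1qc and C3ar1 lie near 0 at the bright end, and Cfb and C5ar1 lie just outside the dashed lines.

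The other genes of the pathway were read from a list of 49, of which 39 had a single-symbol probe set and 20 were above background on at least 1 array, 16 of them on both. None of these 16 was at least 1.5-fold higher or lower by its brightest probe set, against 7.02% higher and 2.27% lower of the 10732 genes above background on both arrays. Their differences ran from -0.31 to 0.34, with 7 of 16 above 0, against 52.7% of those genes. The median was -0.024 beside 0.018 over those genes, and -0.17 beside -0.13 with the arrays centred on their medians. The other 4, Masp1, Masp2, Cfi and Fcnb, were above background only on the HDAC9 siRNA array, so their differences are lower bounds with a sign fixed by the background, and they may lie past 1.5-fold. With these 4 at their bounds the median of all 20 was 0.050. Named below are the 8 genes with the largest values, bounds included, and others where said.

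Of 8 measured genes for complement proteases, 3 were above background on both arrays. All 3 were above 0, against 52.7% of all genes above background on both arrays. After median centring only C2 was, against 33.8% of all such genes. C1ra and C1s1, picked after their values were seen to complete the protease group, encode the proteases that C1q activates and were at 0.059 and 0.097. The largest was C2, the protease of the classical pathway convertase and the neighbour of Cfb on chromosome 17. Its brightest probe set, 1416051_at, read 8.15 on the HDAC9 siRNA array and 7.81 on the control array, a difference of 0.34. Probe set 1457664_x_at gave 0.29, while 1441912_x_at read 7.95 on the HDAC9 siRNA array and 6.53 on the control array, a difference of 1.42. All 3 C2 sets were thus higher on the HDAC9 siRNA array, also under each rescaling, and 1 of them by more than 2-fold on the deposited scale. That set, 1441912_x_at, was close to background on the control array. After loess it was below background there, and its difference was a bound of 0.92. Masp2 and Masp1, proteases of the lectin pathway, and Cfi, the protease that inactivates C3b, were below background on the control array. Their brightest sets read 6.78, 6.71 and 6.60 on the HDAC9 siRNA array, close to background, and so at least 1.36-fold, 1.29-fold and 1.20-fold higher. Only 1 of 2 Masp2 sets and 1 of 5 Masp1 sets were above background on an array, and Cfi had 1 set. After loess none of these 3 brightest sets was above background. Another Masp1 set, 1425985_s_at, was then above it on the control array only, a bound of -0.21.

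The lectin pathway recognition gene Fcna, which encodes ficolin A, read 7.73 on the HDAC9 siRNA array and 8.05 on the control array, a difference of -0.31. The mannose-binding lectin genes Mbl1 and Mbl2 were below background on both arrays. So were all 6 measured genes of the terminal pathway, Hc (which encodes C5), C6, C8a, C8b, C8g and C9.

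The regulators were mixed. Serping1, which encodes the C1 inhibitor, read 11.52 on the HDAC9 siRNA array and 11.78 on the control array, a difference of -0.27. Clu, which encodes clusterin, an inhibitor of the membrane attack complex, was picked after its values were seen because it has 4 probe sets, and all 4 were lower on the HDAC9 siRNA array, by -0.25 to -0.43. Its brightest set, 1437689_x_at, read 13.99 on the HDAC9 siRNA array and 14.24 on the control array. Serping1 and the 4 Clu sets stayed negative under each rescaling. Cd46, a membrane cofactor for C3b cleavage, was close to background, at 6.73 on the HDAC9 siRNA array and 6.44 on the control array, a difference of 0.29.

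Of 7 measured genes for complement receptors and C1q-binding proteins, 6 were above background, 5 of them with differences below 0, or 6 after median centring and 4 after loess. Of all genes above background on both arrays, 52.7% were above 0 as deposited, 33.8% after median centring and 51.4% after loess. Itgb2, the shared beta chain of complement receptors 3 and 4, read 13.95 on the HDAC9 siRNA array and 14.25 on the control array, a difference of -0.29. Its partners were picked after their values were seen. Itgax, the alpha chain of receptor 4, read 11.45 on the HDAC9 siRNA array and 11.62 on the control array, a difference of -0.18. Itgam, the alpha chain of receptor 3, read 10.84 on the HDAC9 siRNA array and 10.85 on the control array, a difference of -0.011, or 0.0038 after loess. The complement receptor gene Cr2, expressed by B cells, was below background on both arrays.

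**Figure D3:**
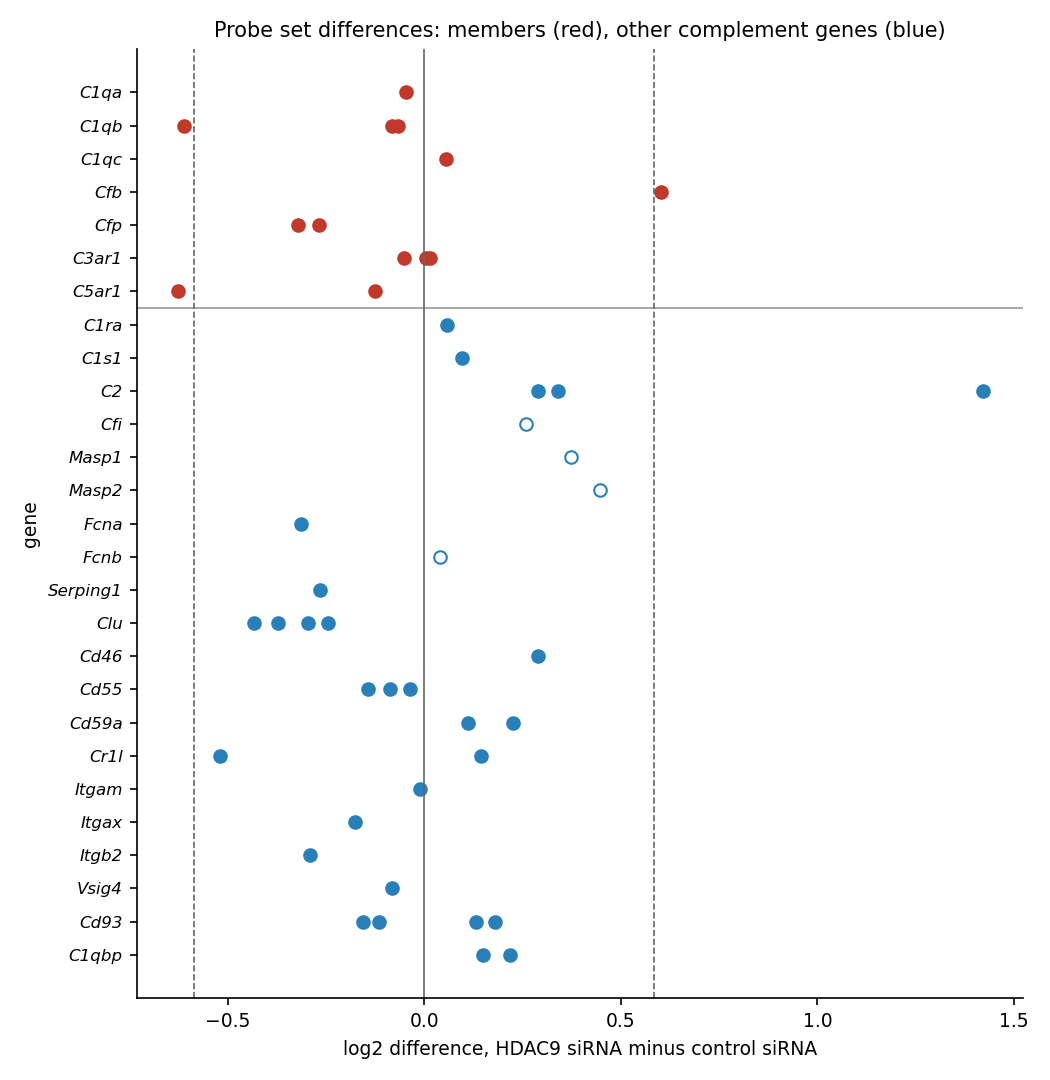
Log2 difference between the HDAC9 siRNA and control siRNA arrays (x axis) for each probe set above background of the 7 members (red) and of 20 other complement genes (blue), 1 row per gene. Open circles are bounds, with the control array below background, and dashed lines mark 1.5-fold; C1qb, C5ar1 and C2 each have 1 probe set past a dashed line while their other sets lie inside, and the C3ar1, Cfp and Clu sets lie close together.

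Other genes differed on the same arrays. Interferon-stimulated genes were higher on the HDAC9 siRNA array: all 16 measured above background on both arrays had differences above 0, with a median of 0.61 and 8 at least 1.5-fold higher, against 7.02% of the 10732 genes above background on both. The summed linear signal of all 17 with a probe set was 48102 on the HDAC9 siRNA array and 29720 on the control array. Cfb is known to be induced by interferon in macrophages, and the part of interferon-responsive expression in its difference was not tested. Fibroblast and mesothelial markers were above background in 13 of 13 cases, with a summed linear signal of 63612 on the HDAC9 siRNA array and 48211 on the control array. They ran from -1.11 for Msln to 1.80 for Col1a1, with 8 above 0 and 5 below. Their median was 0.24, or 0.089 after median centring. Macrophage markers had a median of 0.0053, or -0.14 after median centring, and a summed signal of 84504 on the HDAC9 siRNA array and 86931 on the control array. T cell markers were above background in 2 of 6 cases, Thy1 on both arrays and Cd8a on the control array only. Cd3d, Cd3e, Cd3g and Cd4 were below it on both. Their summed signal, 260.6 on the HDAC9 siRNA array and 408.1 on the control array for all 6, includes values below background. B cell, neutrophil, dendritic cell, and mast cell and eosinophil markers were above background in 1 of 4, 2 of 5, 1 of 4 and 1 of 5 measured genes. Stromal cells also make complement proteins, and their part in the values above was not tested. In a culture measured whole, fewer cells of a type and less RNA per cell cannot be told apart.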

How the data were processed

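The authors deposited 1 table of log2 signals with 45037 probe sets and a column per array. The submitters' processing notes name MAS5, which summarises the probes of a set; version, scaling target and detection calls were not given in the sources used here. After undoing the log2, the mean with 2% trimmed at either end was 497 on both arrays. The median log2 signal was 6.59 on the HDAC9 siRNA array and 6.44 on the control array. The deposited scaling was kept, and values under other scalings are given beside it. Probe sets were named from the platform annotation of 2016 and checked by gene ID against RefSeq (GRCm38.p6): 34741 of 34945 single-symbol probe sets matched and 0 symbols changed. The 932 sets with several symbols and 9160 with none were left out.

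Signals below background were raised to it before the difference was taken, and such a difference is a bound, written "at least". The probe set with the highest mean linear signal stands for its gene. Counts use 1.5-fold and 2-fold. The precision is limited by 1 array per group. The scatter of a single probe set is the SD, over genes, of the difference between the values of the 2 brightest sets of a gene, divided by the square root of 2. Genes named were all members, Hdac9, and the 8 other complement genes with the largest differences; any other is given as part of a list or said to be picked later. Alternatives covered the scaling, the background, the summary per gene, the probe sets used and the fold. The steps were tested on simulated data. Members and lists were chosen with earlier results of these data known. Analyses used Python 3.11.15, pandas 2.3.3 and statsmodels 0.14.6 (loess span 0.3).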

Additional observations from a re-analysis of the deposited data

How the results depend on the processing

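All 78 values of member probe sets under the scalings and background settings tried stayed within the single-probe-set scatter of the reported ones; 6 had the other sign, all of them from C1qa, C1qc and C3ar1 sets with differences near 0. Centring the arrays on their medians moved the median of all genes from 0.027 to -0.12. The reported 2 members past 1.5-fold (Cfb higher, C5ar1 lower) became 1, C5ar1, with the arrays centred on their medians, after quantile normalization and after loess. They became 1, Cfb, with each gene at the median of its sets, and 0 at 2-fold. The members' median of -0.045 was -0.19 with median centring and 0.019 after quantile normalization, so its sign has no fixed direction. With bounds included, the median of the other complement genes above background was 0.050, -0.091 with median centring and -0.096 after loess. These medians contain bounds, and the genes above background differed between the scalings. Over the other complement genes above background on both arrays the median stayed below 0. It was -0.024 as deposited, -0.17 with median centring, -0.019 after quantile normalization and -0.010 after loess. Hdac9 was at -0.54 as a bound, at -0.19 after loess, at -1.19 with background at the 75th percentile of the olfactory and vomeronasal receptor sets, at 0 with the 99th and at -1.18 with no floor and a pseudocount of 1. The gene values of single members under other summaries were added after seeing the data, and all stayed within the overall scatter of 0.29. C5ar1 moved the most, from -0.63 to -0.38 with the median of its sets. That move is larger than the scatter of 0.20 among the brightest 25% of genes, in which C5ar1 lies. No paired analysis was possible because each group has 1 array, and for the same reason no array could be left out.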

Other observations

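Probe set 1418021_at is annotated to both C4a and C4b, near-identical genes of the fourth complement component, and was assigned to neither. It read 8.95 on the HDAC9 siRNA array and 8.36 on the control array, a difference of 0.590, or 1.51-fold higher. This is barely past the 1.5-fold line at 0.585, which 8.02% of single-symbol probe sets above background reached or passed. The value is for the deposited scale only. Probe set 1456437_x_at, annotated to both C1rb and C1ra, read 8.36 on the HDAC9 siRNA array and 8.19 on the control array, a difference of 0.18. The single-symbol set of C1ra gave 0.059.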
